A study of Mus musculus with 4 samples.

Results

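The olfactory receptor cluster of mouse chromosome 2 was examined in DNA methylation maps of male germ cells with and without Np95. The cluster was taken as chromosome 2 from 85.2 to 90.3 Mb (build mm10), a stretch of 5.1 Mb, cut into non-overlapping windows of 10 kb. Of its 510 windows, 455 had at least 10 CpGs with a value in all 4 samples, out of 233810 such windows in the genome. The 55 windows below that minimum listed a median of 24 CpGs, and 34 of them hold a receptor gene, so the CpG-poorest stretches of the cluster were not tested. The knockout samples (Np95fl/fl:Stra8-Cre, replicates 1 and 2) carried the floxed Np95 gene and the Stra8-Cre transgene, whose promoter is active in differentiating spermatogonia. The control samples (Np95fl/fl, replicates 1 and 2) carried the same floxed gene and no Cre, and no sample carried Cre without the floxed gene. All 4 came from testes of 21-day-old mice, from tubules freed of interstitial cells by picking and a mesh, and were profiled by whole-genome bisulfite sequencing with adaptors added after conversion (PBAT). Whether the 2 samples of a group were taken from different animals is not stated, so the spread behind every p-value here may be technical. A level is an average over cells and alleles, so a partial loss in every cell and a full loss in some of them cannot be told apart.

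Np95, also called UHRF1, binds hemimethylated CpGs behind the replication fork and brings in the maintenance methyltransferase DNMT1, so that without it methylation is diluted at each division. Olfactory receptors are odorant-binding G protein-coupled receptors. Each olfactory sensory neuron transcribes a single receptor allele, and elsewhere the genes are mostly silent. Most have their coding sequence in a single exon and lie in large arrays that grew by gene duplication, in sequence that is rich in A and T and poor in CpGs. The annotation places 291 receptor genes in the interval, 220 of them coding and 71 pseudogenes, beside 39 other annotated genes. Receptors were recognised by symbol alone (Olfr and a digit, or Or, digits and a capital letter). Whether pseudogenes with other symbols derive from receptors was not checked.

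The sparseness of CpGs shows in the sequences themselves. RefSeq promoters (GRCm38.p6, the build called mm10), running from 250 bases before to 50 bases after the annotated start, were found for 184 of the 291 receptors. These 300 bases held a median of 1 CpG, against 7 over all 27025 promoters, and 36.4% held none. Their median GC content was 32.0%, against 52.7% over all promoters. The 5 promoters below are printed 5′ to 3′ on the strand of the gene, with each CpG in capitals. They were chosen after their values were seen. Olfr1098 shows a start without a CpG, Olfr1240 a single CpG at low levels in all samples, and Olfr1200 a methylated receptor start. Pramel6 and Fads2b are genes of the cluster that encode no receptor.
Olfr1098, chr2:86923481-86923780, minus strand: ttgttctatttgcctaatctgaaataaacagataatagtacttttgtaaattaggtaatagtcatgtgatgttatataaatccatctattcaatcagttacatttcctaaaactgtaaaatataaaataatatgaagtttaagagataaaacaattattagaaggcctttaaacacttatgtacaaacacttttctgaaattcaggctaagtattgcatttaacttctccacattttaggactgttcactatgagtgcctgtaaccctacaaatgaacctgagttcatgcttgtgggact
Olfr1240, chr2:89440294-89440593, minus strand: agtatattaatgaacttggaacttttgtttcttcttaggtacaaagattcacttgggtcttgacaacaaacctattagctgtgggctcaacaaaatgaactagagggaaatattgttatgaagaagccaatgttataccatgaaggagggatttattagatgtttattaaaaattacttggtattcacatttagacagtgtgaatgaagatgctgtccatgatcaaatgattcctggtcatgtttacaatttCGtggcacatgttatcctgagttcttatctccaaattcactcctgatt
Olfr1200, chr2:88768264-88768563, minus strand: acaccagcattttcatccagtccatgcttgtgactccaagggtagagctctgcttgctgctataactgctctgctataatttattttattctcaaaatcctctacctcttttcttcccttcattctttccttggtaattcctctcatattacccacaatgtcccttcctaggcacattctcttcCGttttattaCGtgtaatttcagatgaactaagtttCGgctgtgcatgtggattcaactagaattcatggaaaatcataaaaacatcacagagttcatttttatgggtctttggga
Pramel6, chr2:87506315-87506614, plus strand: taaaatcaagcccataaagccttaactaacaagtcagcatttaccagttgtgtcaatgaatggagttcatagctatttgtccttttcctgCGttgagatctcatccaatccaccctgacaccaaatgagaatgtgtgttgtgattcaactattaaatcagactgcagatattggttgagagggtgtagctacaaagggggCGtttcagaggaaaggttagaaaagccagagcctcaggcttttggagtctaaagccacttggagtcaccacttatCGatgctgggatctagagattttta
Fads2b, chr2:85518886-85519185, minus strand: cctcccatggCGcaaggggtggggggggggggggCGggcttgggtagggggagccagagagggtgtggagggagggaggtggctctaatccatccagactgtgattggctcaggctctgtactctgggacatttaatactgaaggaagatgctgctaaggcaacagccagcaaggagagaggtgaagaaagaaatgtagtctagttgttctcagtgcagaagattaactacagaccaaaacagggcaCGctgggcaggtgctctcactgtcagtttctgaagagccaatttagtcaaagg

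The printed stretch of Olfr1098 holds no CpG to measure. The single CpG of Olfr1240, 2 bases from the annotated start, stood at 16.7% and 5.56% in the knockouts, against 6.67% and 21.4% in the controls. The groups overlapped there. The 3 CpGs of Olfr1200, at 30, 56 and 66 bases before the start, averaged 61.0% and 44.0% in the knockouts and 93.4% and 100% in the controls. Those of Pramel6 averaged 47.2% and 36.9% in the knockouts and 88.9% and 88.2% in the controls. At both genes every knockout value lay below every control value. Of the 3 CpGs of Fads2b, 2 were measured, at 4.50% and 11.2% in the knockouts against 6.53% and 1.47% in the controls, and this start was low in all 4 samples.

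Every tested window of the cluster was less methylated in both knockouts than in both controls. The mean level of its 455 windows was 40.0% and 39.7% in the knockouts, against 71.3% and 74.5% in the controls. The group means were 39.9% ± 0.198 in the knockouts and 72.9% ± 2.25 in the controls (SD, n = 2 each). The difference of -33.0 points exceeded both SDs by far. With 2 samples on each side the exact two-sided permutation test cannot give less than p = 0.333, the value found here. The knockouts retained 54.7% of the control level, a share obtained by dividing the knockout mean by the control mean. A window was called when limma gave a Benjamini-Hochberg adjusted p under 0.05 over all windows of the genome and the difference reached 10 points. On this rule 450 of the 455 windows (98.9%) were called lower and 0 higher, against 97.0% called lower and 0.000855% called higher in the whole genome. Tested on each window's own spread alone, 424 were called lower, against 94.8% in the genome. With the minimum lowered to 5 CpGs, which brings in windows measured at 5 to 9 CpGs, 496 of 502 were called lower. The genome share at that minimum was not counted. Both knockouts lay below both controls in all 455 windows, as they did in 99.8% of windows of the genome.

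The 5 Mb on either side lost methylation to nearly the same share. The 967 flanking windows stood at 41.3% and 41.7% in the knockouts and 74.5% and 78.1% in the controls, and retained 54.4%. The level of the cluster minus that of its flanks was -1.31 and -1.97 points in the knockouts and -3.15 and -3.62 points in the controls. The gap was thus 1.74 points narrower in the knockouts (exact permutation p = 0.333, the smallest possible). The retained shares differed by 0.274 points, less than the 0.527 points by which that difference varied (SD) over the 4 pairings of a knockout with a control. The pairings reuse the same samples, so an SD over them does not measure sampling error. Averaged over cytosines instead of windows, the change in the gap was -0.486 points in place of 1.74, so its direction depends on how regions are averaged. The difference in retained share was then 0.575 points. The 477 windows of the low-coordinate flank differed least from the cluster, with 40.3% and 40.3% in the knockouts and 72.3% and 75.5% in the controls. The 490 windows of the high-coordinate flank were higher, at 42.3% and 43.0% in the knockouts and 76.6% and 80.7% in the controls.

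The distance to other CpG-poor windows was wider. The cluster windows listed a median of 38 CpGs, against 70 in the flanks. Windows of the rest of chromosome 2, weighted to the same number of listed CpGs, averaged 43.0% and 43.3% in the knockouts and 79.5% and 83.8% in the controls. The level of the cluster minus theirs was -3.06 and -3.55 points in the knockouts and -8.19 and -9.34 points in the controls. The difference between these gaps was 5.46 points (exact permutation p = 0.333, the smallest possible). The retained share was 54.7% in the cluster against 52.8% in the weighted windows, a difference of 1.82 points. It varied by 0.444 points (SD) over the same 4 overlapping pairings, and was not tested. Weighted to the control levels of the cluster instead, an alternative chosen after seeing the data, chromosome 2 windows retained 53.8%. The difference in retained share was then 0.832 points and the difference in loss 0.703 points, in place of 5.46.

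**Figure D1:**
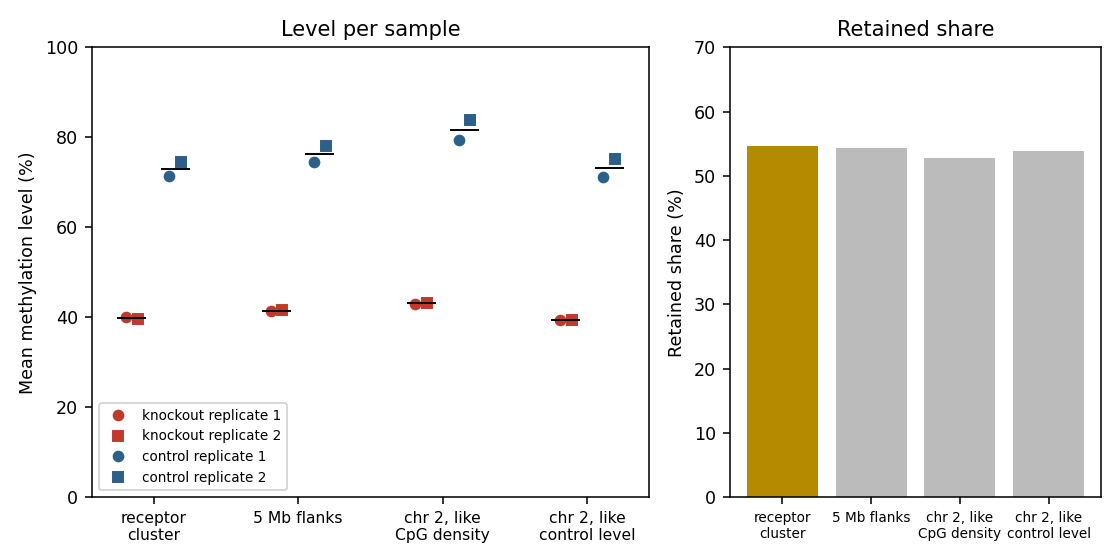
Mean methylation level in percent of each sample (left; circles and squares are replicates 1 and 2, lines are group means, knockouts left of controls) and retained share in percent (right; knockout mean divided by control mean) for the cluster, its 5 Mb flanks, and the rest of chromosome 2 weighted to the cluster's CpG density or control level. Knockouts stand between 39.3% and 43.3% in every set, controls between 71.1% and 83.8%, and the retained shares run from 52.8% to 54.7%.

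Measurement was thinner here than around the cluster. Of the 36294 cytosines listed in the cluster, 13958 (38.5%) had a value in all 4 samples, against 62.1% in the flanks. The number with a value was 21999 and 22434 in the knockouts and 22963 and 23174 in the controls. The median within-group SD of a window was 2.95 points in the cluster and 2.57 points in the flanks. Many receptors are near-copies of each other, and how reads that fit several places were treated is not given in the sources used here. As a check of the labelled cell type, CpG-rich ends of 8 imprinted genes that carry maternal methylation, intermediate in somatic cells and erased in the male germ line, averaged 8.82% and 6.65% in the knockouts and 6.14% and 3.33% in the controls. No check of the deletion itself was made here, since methylation does not show it.

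Along the cluster the control level dipped in the middle while the knockout level was flatter. In segments of 500 kb counted from the low-coordinate boundary, the first stood at 41.7% in the knockouts and 80.7% in the controls. The sixth, from 2.5 to 3 Mb into the cluster, had the lowest means, 37.3% in the knockouts and 64.4% in the controls, and retained 57.9%. The segment from 4.5 to 5 Mb stood at 42.3% in the knockouts and 74.5% in the controls, and the remaining 100 kb of the cluster at 47.6% in the knockouts and 83.3% in the controls. In bins of 100 kb the cluster ranged from 34.5% to 47.6% in the knockouts and from 62.0% to 84.8% in the controls. The edge windows were highly methylated in controls. The one at the low-coordinate side stood at 47.6% and 51.5% in the knockouts and 88.8% and 91.5% in the controls, and that at the high-coordinate side, with the pseudogene Olfr1273-ps, at 45.8% and 50.9% in the knockouts and 87.2% and 94.0% in the controls. Across the 455 windows the knockout replicates correlated at a Pearson r of 0.749 and the control replicates at 0.955, against 0.933 and 0.991 over chromosome 2 outside the cluster and flanks. These are correlations across windows, which are not independent replicates and hold fewer CpGs in the cluster.

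**Figure D2:**
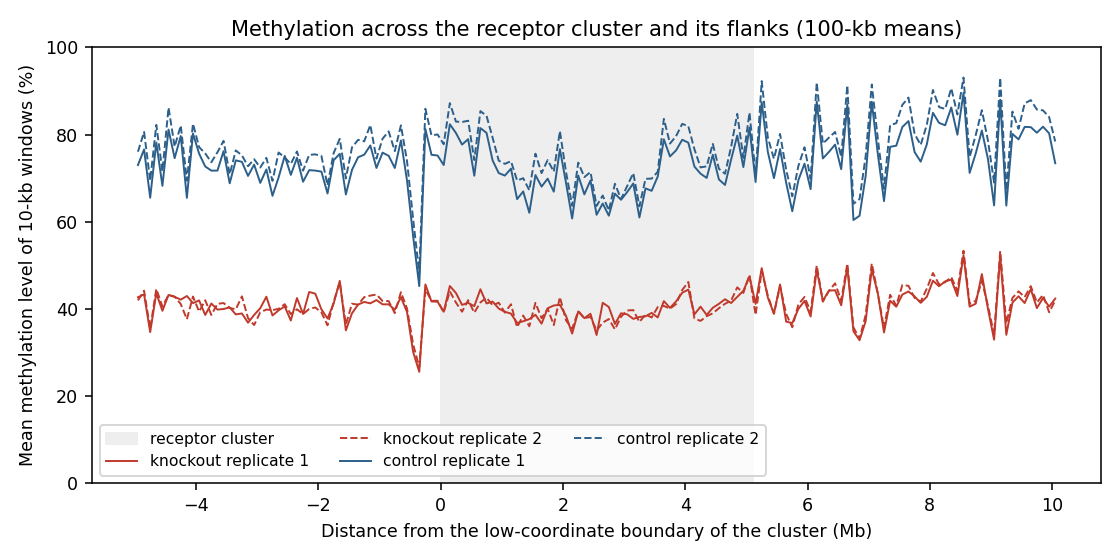
Mean methylation level in percent of the 10-kb windows in each 100-kb bin, by distance in Mb from the low-coordinate boundary of the cluster, for knockout replicates (red) and control replicates (blue); the cluster is shaded. Within the shading knockout bins average 34.5% to 47.6% and control bins 62.0% to 84.8%, with the lowest control levels near the middle.

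The windows of the cluster were unusual in how their control levels were spread. Over windows, the SD of the control level was 12.8 points in the cluster and 18.7 points in the flanks. Control levels of 70 to 80% were found in 31.2% of cluster windows and levels of 60 to 70% in 19.3%, against 14.6% and 8.07% of windows in the flanks. Levels of 90% or more were found in 15 cluster windows (3.30%), against 18.9% in the flanks. At matched control levels the cluster and its flanks lost about the same. Windows at 70 to 80% in controls averaged 41.1% in the knockouts and 75.4% in the controls in the cluster, and retained 54.5%, against 54.8% in the flanks. Those at 80 to 90% in controls averaged 44.5% in the knockouts and 84.6% in the controls, and retained 52.6% in the cluster against 52.5% in the flanks. The classes parted at the ends. The 26 cluster windows at 20 to 50% in controls averaged 27.5% in the knockouts and 42.4% in the controls, a retained share of 64.9%, against 59.1% in the flanks, whose windows of that class had a lower control mean of 35.3%. The 15 windows at 90% or more retained 50.1%, against 55.8% in the flanks. The control values that define a class also enter its retained share, so selection may account for part of each value, and differences between classes were not tested.

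**Figure D3:**
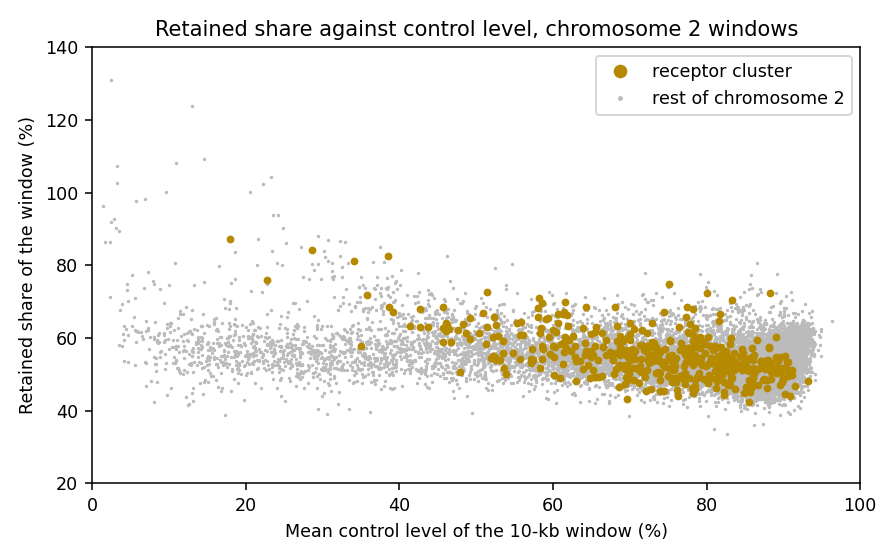
Retained share in percent (knockout mean over control mean) of each 10-kb window of chromosome 2 against its mean control level in percent, with the 455 cluster windows in yellow and the rest of the chromosome in grey. Most cluster windows lie between 50% and 90% on the control axis, and within the cluster the share is lower where the control level is higher (Spearman rho of -0.505 across windows, against -0.0845 on chromosome 2 outside the cluster and flanks; the control level enters both axes).

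Single cytosines of the cluster were often intermediate even in controls. The share between 20% and 80% was 83.6% and 81.6% in the knockouts, against 48.3% and 40.3% in the controls. In the flanks it was 72.5% and 72.8% in the knockouts and 22.5% and 14.0% in the controls. Cytosines at 80% or more made up 1.32% and 1.53% of the cluster in the knockouts and 45.2% and 53.2% in the controls. Cytosines at 20% or less made up 15.1% and 16.9% in the knockouts and 6.47% in both controls, whereas in the flanks they were 20.1% and 19.9% already in the controls. The reads behind each value are unknown, and the share of intermediate values moves with them.

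CpG spacing separated the cluster from its flanks. Of its measured cytosines, 57.8% had no other listed CpG within 35 bp, against 38.4% in the flanks. These isolated CpGs stood at 38.8% and 38.5% in the knockouts and 72.2% and 76.0% in the controls, and retained 52.1%. The 1072 cytosines with 3 or more neighbours stood at 43.7% and 43.4% in the knockouts and 61.4% and 63.2% in the controls, and retained 69.8%. In the flanks such dense CpGs were low in all samples, at 19.7% and 19.8% in the knockouts and 31.7% and 32.5% in the controls, a retained share of 61.6%. Dense CpGs of the cluster were thus higher than those of the flanks in all 4 samples. Differences in retained share between these classes were not tested.

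The largest losses of single windows were near 50 points. The window at 85600001 to 85610000, with Olfr999-ps1 and Olfr1000, stood at 37.8% and 42.3% in the knockouts and 90.4% and 91.2% in the controls, a difference of -50.8 points. The window at 85570001 to 85580000, with Olfr996, differed by -50.1 points, and that at 87040001 to 87050000, with Olfr1106, by -48.8 points. A pair of neighbouring windows inside Fads2b, 85490001 to 85510000, differed by -49.3 and -48.4 points. All 5 had control means between 85.6% and 93.2%. The 5 windows not called were those with the smallest losses, and all had control means under 40%.

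The window at 87390001 to 87400000, which holds the pseudogene Gm1826, was the lowest of the cluster, at 14.6% and 16.7% in the knockouts and 18.3% and 17.7% in the controls. Its difference of -2.31 points was below the 10 points required. The window of Olfr48, 89840001 to 89850000, stood at 27.6% and 20.7% in the knockouts and 27.9% and 29.4% in the controls, a difference of -4.54 points. The window of Olfr1124, 87430001 to 87440000, stood at 16.7% and 17.8% in the knockouts and 21.5% and 24.1% in the controls (-5.49 points). The remaining 2 were 89910001 to 89920000, outside annotated genes (-6.40 points), and 87900001 to 87910000, with Olfr1154 (-6.76 points). Both were called lower without knockout replicate 1, at -10.1 and -11.0 points, and stood at -2.75 and -2.50 points without knockout replicate 2. Among the 5 windows lowest in controls, 1 was called: 87520001 to 87530000, with Olfr1127-ps1 and Gm13736, stood at 21.6% and 18.9% in the knockouts and 33.6% and 36.3% in the controls (-14.7 points).

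The receptor genes themselves lost methylation like the sequence between them. Of the 291 genes, 111 had at least 5 CpGs measured in all samples (101 coding, 10 pseudogenes), 157 had 1 to 4 and 23 had none. A receptor gene spans a median of 943 bases with 6 listed CpGs. Of the 111 tested, limma called 102 (91.9%) lower and 0 higher, against 86.0% called lower over all 38875 gene spans. The medians were 43.1% in the knockouts and 85.5% in the controls, with a median retained share of 54.0%. Over all gene spans the medians were 38.6% in the knockouts and 71.6% in the controls. Both knockouts lay below both controls in 106 of the 111, against a background of 92.7%, the groups overlapped in 4 (Olfr1057, Olfr1098, Olfr1163 and Olfr1257), and in 1 gene, Olfr48, both knockouts lay above, against a background of 3.05%. On each gene's own spread 76 were called lower, against 82.1% over all genes, and these short genes had a median within-group SD of 4.58 points.

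**Figure D4:**
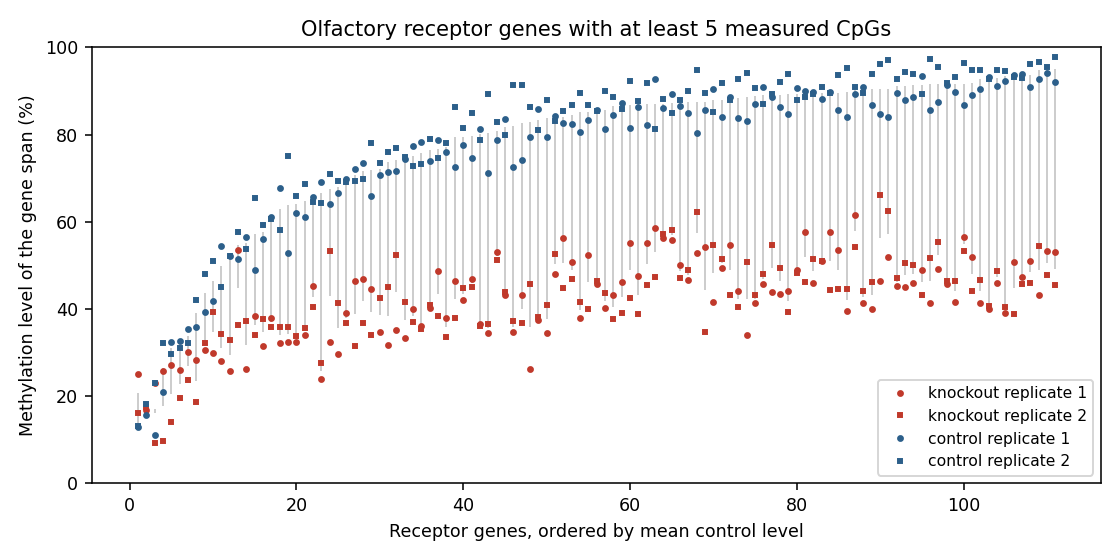
Methylation level in percent of the 111 receptor genes with at least 5 measured CpGs, ordered by mean control level, with knockout replicates in red and control replicates in blue (circles replicate 1, squares replicate 2) and a grey line joining the group means. Knockout means run from 16.1% to 57.9% and control means from 13.0% to 94.9%, and the groups overlap in 4 genes with control means of 54.6% or less.

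The 70 receptor genes at 80% or more in controls were all called lower, with medians of 47.1% in the knockouts and 89.0% in the controls. They were chosen on their control level, and the share of all gene spans at that level called lower was not counted. Among genes with at least 10 measured cytosines, Olfr1233 differed most. It stood at 41.4% and 46.7% in the knockouts and 90.5% and 94.8% in the controls, a difference of -48.6 points (adjusted p = 4.34e-15 by limma). Olfr1037 stood at 39.4% and 44.7% in the knockouts and 84.1% and 95.3% in the controls (-47.6 points), and was not called on its own spread (adjusted p = 0.0608 by limma). Olfr1179, at 41.3% and 44.2% in the knockouts and 91.0% and 89.6% in the controls, differed by -47.5 points. Olfr1012 differed by -47.5 points and Olfr994 by -46.5 points, with knockout means of 41.8% and 42.3%. The groups did not overlap in any of these 5 genes. Each encodes an odorant receptor, and their positions run from 85429883, where Olfr994 begins, to 89342391, where Olfr1233 ends.

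Receptor genes that were already low in controls lost fewer points. The 11 genes under 50% in controls, all coding, had medians of 22.7% in the knockouts and 31.9% in the controls, and a median retained share of 71.8%. A low control level limits the points that can be lost. The genes were chosen on control values, which also enter the retained share, so selection may account for part of these values. The 11 genes listed a median of 13.7 CpGs per kb, against 6.42 in the 30 genes at 50 to 80% and 7.45 in those at 80% or more. Over the 111 tested receptor genes, CpG density and control level correlated at a Spearman rho of -0.119. Of the 11, 4 were called lower and 7 were not. The share called lower among all gene spans under 50% in controls was not counted. Olfr48 (89844066 to 89844971, 17 CpGs measured) stood at 25.2% and 16.0% in the knockouts and 12.8% and 13.2% in the controls. Its difference of 7.58 points (adjusted p = 4.61e-05 by limma) was under the 10 points required, and rested on knockout replicate 1: leaving out replicate 2 gave 12.1 points, and leaving out replicate 1 gave 3.01 points (adjusted p = 0.158 by limma). Of its 25 measured cytosines, which are not replicates, both knockouts lay above both controls at 11 and below at 3. The shares over all cytosines were not counted. Olfr1098 (86922583 to 86923530) stood at 16.8% and 17.5% in the knockouts and 15.8% and 18.1% in the controls, with overlapping groups. Olfr1057 was at 23.1% and 9.21% in the knockouts and 11.1% and 22.9% in the controls, so its replicates differed by more than its groups.

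The next genes in this class lost a few points. Olfr1009, with 16 CpGs measured, stood at 30.0% and 23.6% in the knockouts and 35.4% and 32.2% in the controls (-6.97 points). Olfr152 stood at 26.0% and 19.5% in the knockouts and 32.7% and 31.1% in the controls (-9.17 points). Both had knockouts below controls and missed the 10 points. Olfr1163, at 25.7% and 9.64% in the knockouts and 20.9% and 32.1% in the controls, had overlapping groups (-8.80 points). Olfr1240, at 27.1% and 14.0% in the knockouts and 32.3% and 29.8% in the controls, differed by -10.5 points without passing the test (adjusted p = 0.0856 by limma). Knockout replicate 2 was the lower knockout in each of these 4 genes. Without knockout replicate 1 all 4 were called lower, at -10.2 points for Olfr1009, -12.4 for Olfr152, -16.8 for Olfr1163 and -17.0 for Olfr1240. Without knockout replicate 2 none of the 4 was called, at -3.76 points for Olfr1009, -5.94 for Olfr152, -0.753 for Olfr1163 and -3.97 for Olfr1240.

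The 4 called lower were Olfr1155 (-18.7 points), Olfr1153 (-15.5 points), Olfr1264 (-12.3 points) and Olfr1121 (-11.8 points). Olfr1155 stood at 28.0% and 34.2% in the knockouts and 54.5% and 45.1% in the controls. None of the 4 was called on its own spread (adjusted p from 0.0878 to 0.229 by limma). Without control replicate 2 the differences of Olfr1264 and Olfr1121 were -7.94 and -7.28 points, and the adjusted p of Olfr1153 was 0.125 by limma. Without control replicate 1 the adjusted p was 0.0550 for Olfr1153 and 0.0567 for Olfr1121 by limma, and without knockout replicate 1 Olfr1121 differed by -7.01 points.

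Control levels varied between receptor families, which group receptors by protein sequence and often sit side by side as tandem duplicates. Of the 291 receptors, 257 carry a MOR family name in the annotation, in 50 families, and 14 families had at least 3 tested genes. Family MOR206, which includes Olfr1098, averaged 28.4% and 26.4% in the knockouts and 50.2% and 53.5% in the controls over 3 genes. Family MOR174, with Olfr1155 and Olfr1163, averaged 34.7% and 34.8% in the knockouts and 62.0% and 61.5% in the controls over 8 genes. At the other end, MOR172 averaged 46.3% and 42.8% in the knockouts and 88.4% and 92.2% in the controls over 4 genes, and MOR213 44.7% and 43.4% in the knockouts and 85.0% and 92.7% in the controls over 5. Members of 1 family could differ widely: in MOR232, which includes Olfr48, the control means of 6 genes ran from 13.0% to 94.8%. Family levels are descriptions over related sequences, and were not tested.

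Pseudogenes and intergenic sequence were compared by pooling cytosines. The 1511 cytosines in coding receptor genes averaged 42.0% and 41.4% in the knockouts and 73.8% and 77.3% in the controls. The 230 cytosines in receptor pseudogenes averaged 43.4% and 42.7% in the knockouts and 82.2% and 85.5% in the controls. The 11297 cytosines outside annotated genes averaged 39.6% and 39.2% in the knockouts and 69.7% and 72.8% in the controls. Pseudogenes were thus the most methylated in controls and retained 51.3%, against 55.2% in coding receptors and 55.3% between genes, differences that were not tested. By windows, the 253 with a receptor gene differed from the other 202 by 0.370 and -0.0926 points in the knockouts and by 1.87 and 2.29 points in the controls. The difference of -1.94 points (exact permutation p = 0.333, the smallest possible) changed sign in windows with at least 20 CpGs (0.170 points).

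Genes of other kinds lie between the receptors. Fads2b, a gene of the fatty acid desaturase family, stood at 41.3% and 36.9% in the knockouts and 78.2% and 79.9% in the controls over its span (-40.0 points). Pramel7 belongs to the PRAME family and encodes a protein known in pluripotent cells of the mouse embryo to promote the degradation of UHRF1. It stood at 52.3% and 49.2% in the knockouts and 87.6% and 93.4% in the controls (-39.7 points). Both knockouts lay below both controls at 40 of its 41 measured cytosines. Its neighbour Pramel6, of the same family, stood at 40.7% and 48.9% in the knockouts and 87.2% and 92.7% in the controls (-45.2 points), with knockouts below controls at all 26 cytosines. Cytosines of a gene come from the same samples and are not replicates, and the share of all cytosines so separated was not counted. Of the 18 annotated genes other than receptors that were tested, 14 (77.8%) were called lower and 1 higher, against 86.0% and 0.448% of all gene spans.

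A set of 3 pseudogenes without a receptor symbol, named after their values were seen, was low in controls and not called lower in the knockouts. They are a selection from the 8 tested genes other than receptors under 50% in controls, of which others were called lower. Among those were Gm13722, with means of 27.3% in the knockouts and 40.2% in the controls, and Gm13730, at 21.1% and 36.9%. Gm13735 (87236504 to 87237444, 19 CpGs measured) stood at 25.2% and 24.6% in the knockouts and 16.1% and 9.07% in the controls. Its difference of 12.3 points was called higher (adjusted p = 7.07e-12 by limma), against 0.448% of gene spans called higher. It was 8.74 points without control replicate 2, and was not called on its own spread (adjusted p = 0.124 by limma). Gm13736 (87526010 to 87526753) stood at 8.60% and 4.28% in the knockouts and 0.417% and 0.854% in the controls, a difference of 5.81 points. Gm1826 stood at 11.1% and 13.4% in the knockouts and 11.2% and 10.3% in the controls, with overlapping groups.

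Most tested promoter windows of receptors were methylated in controls and lost methylation in the knockouts. In promoter windows from 1000 bp before to 500 bp after the annotated start, 33 of 184 receptors had at least 5 CpGs measured. These windows share cytosines with the gene spans. Around the 184 starts, 545 measured cytosines lay within 500 bp inside, against 55 within 500 bp before and 76 from 1000 to 500 bp before. Likeness to the gene spans is thus partly built in, and the upstream part was not tested alone. The medians of the 33 windows were 39.6% in the knockouts and 78.9% in the controls. In controls 16 of them stood at 80% or more and 7 under 50%, the lowest at 16.3%. Of the 33, limma called 27 (81.8%) lower and 0 higher, against 40.2% called lower and 0.271% called higher over 23214 promoters, most of which are CpG-rich and low in all samples. The groups overlapped in 4, and both knockouts lay below both controls in 29, against a background of 63.1%. On their own spread 0 of the 33 were called by limma, against 0.0646% called lower over all promoters. Before adjustment 23 of the 33 had a p under 0.05 by limma. The share of all promoters at that unadjusted level was not counted, so the 23 have no background beside them. Of the 220 coding receptors, 75.5% have a length that is a multiple of 3, so many annotated starts may be those of the coding sequence and not of the transcript.

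Around the 184 starts, cytosines from 500 bp before to the start were few, and in the controls they had the highest mean of all bins. These 55 cytosines averaged 40.8% and 45.5% in the knockouts and 80.4% and 86.4% in the controls. The 545 cytosines from the start to 500 bp inside averaged 42.9% and 43.3% in the knockouts and 73.5% and 77.8% in the controls. The lowest bin lay from 3000 to 3500 bp inside the start, beyond the end of most receptor genes, with 32.4% and 32.2% in the knockouts and 59.0% and 62.4% in the controls. No bin had a control mean under 60%. Fads2b was low at its start: its promoter window stood at 24.1% and 8.47% in the knockouts and 7.24% and 6.77% in the controls (adjusted p = 0.171 by limma), with a difference of 17.1 points without knockout replicate 2, which was called, and 1.46 points without knockout replicate 1 (adjusted p = 0.431 by limma).

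**Figure D5:**
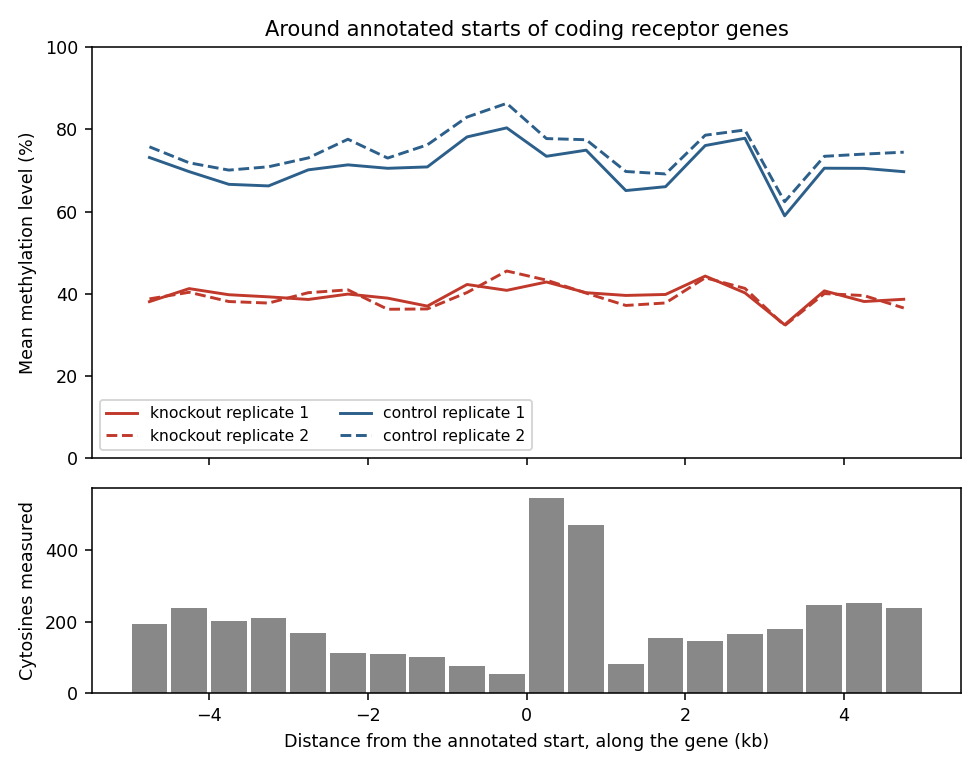
Mean methylation level in percent in bins of 500 bp around the annotated starts of receptor genes (top; knockout replicates red, control replicates blue) and number of measured cytosines per bin (bottom). The bin before the start averages 43.2% in the knockouts and 83.4% in the controls on 55 cytosines, and no bin shows a dip at the start.

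A motif known from receptor promoters, TAATTA, a homeodomain core of the kind bound by LHX2, was searched on both strands of the same 300 bases. It was present in 45 of 184 promoters of the cluster (24.5%), in 17.2% of 760 receptor promoters elsewhere and in 5.32% of all promoters. These sets also differ in GC content, whose part in the shares was not tested, and the motif holds no CpG.

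Short stretches of low methylation in controls were few in the cluster, and most of them averaged higher in the knockouts. Of its 642 windows of 1 kb with at least 5 measured CpGs, 29 (4.52%) were under 20% in controls, against 6.73% in the flanks. Between 20% and 80% lay 55.8% of these windows in the cluster and 14.7% in the flanks. The 29 low windows averaged 19.8% and 15.5% in the knockouts and 12.4% and 12.5% in the controls, and both knockouts lay above both controls in 15 of them (51.7%). In the flanks the low windows averaged 7.37% and 6.36% in the knockouts and 6.46% and 6.55% in the controls, with both knockouts above in 22.0%. The windows were chosen on their control values, so selection may account for part of each difference. Low windows lay at Olfr48, Olfr1057, Olfr32, Gm13715, Gm13722, Gm13735, Gm13736, Gm1826 and the start of Fads2b, and others lay outside annotated genes. The widest difference was in a 1-kb window at 85715001 to 85716000, outside annotated genes, at 24.1% and 33.7% in the knockouts and 12.5% and 15.3% in the controls.

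Receptors outside the cluster gave like values. Of 675 tested receptor genes elsewhere in the genome, 594 (88.0%) were called lower and 3 higher, near the 86.0% and 0.448% of all gene spans, with medians of 43.4% in the knockouts and 86.2% in the controls. The 1165 windows with a receptor gene elsewhere averaged 39.6% and 39.7% in the knockouts and 71.5% and 75.1% in the controls. The 253 such windows of the cluster averaged 40.2% and 39.7% in the knockouts and 72.1% and 75.5% in the controls. Vomeronasal receptors, which detect pheromones, had calls near the same 86.0%: 62 of 68 tested Vmn1r genes (91.2%) and 139 of 152 Vmn2r genes (91.4%) were called lower. The median Vmn2r gene stood at 38.2% in the knockouts and 67.7% in the controls.

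Genes that serve receptor signalling and choice were called about as often as other genes over their spans. Of 23 tested, 20 (87.0%) were called lower over their span, against 86.0% of all gene spans. At their promoters 4 of 19 (21.1%) were called lower, against 40.2% of all promoters, and the median promoter stood at 1.58% in the knockouts and 1.46% in the controls. Omp, the marker protein of mature olfactory neurons, stood at 46.2% and 47.8% in the knockouts and 85.8% and 83.9% in the controls over its span (-37.8 points). Gnal, the G protein subunit coupled to the receptors, stood at 30.7% and 30.6% in the knockouts and 58.6% and 62.6% in the controls (-29.9 points). Adcy3, the adenylyl cyclase of the same pathway, stood at 48.0% and 48.1% in the knockouts and 79.0% and 82.1% in the controls (-32.5 points), while its promoter was at 1.55% and 1.33% in the knockouts and 1.89% and 1.43% in the controls. Lhx2, the homeodomain factor needed for receptor choice, stood at 10.3% and 11.2% in the knockouts and 19.1% and 20.7% in the controls over its span, a difference of -9.11 points that missed the 10 points. The 4 promoters called lower were those of Cnga4 and Cngb1, subunits of the odor-gated channel, Ano2, a chloride channel gene, and Rtp2, a receptor transport gene. Cnga4 stood at 39.4% and 41.9% in the knockouts and 81.4% and 90.3% in the controls, the widest of the 4.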

How the data were processed

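Methylation was measured in 2 knockout and 2 control samples of male germ cells. The authors deposited, in percent, the level of each CpG cytosine, with both strands listed separately. A minimum of 10 reads is named in the title of that file. The build was mm10, per the submitters' processing notes. Neither the aligner, the caller nor the reads behind a value were stated (not given in the sources used here), so depth is unknown and every value had equal weight. Positions matched CpGs of the RefSeq promoters (GRCm38.p6) at 58325 of 58325 places on chromosome 2.

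A region's level was the mean over cytosines with a value in all 4 samples. Regions of the whole genome were tested with limma 3.58.1 (R 4.3.3; trended, robust) on the log2 ratio of methylated to unmethylated fraction, with 0.01 added to both. For 99.0% of windows and 88.1% of genes the prior degrees of freedom were infinite, so the variance used was shared between regions and not the region's own. Calls on a region's own spread used an ordinary t-test on the same fit, without shared variance. With 2 samples per group that t-test has few degrees of freedom and little power. The test was also run on simulated data, whose noise was drawn at the shared variance of the fit, so that run cannot test the sharing itself. Weighting to like CpG density used bins of 10 listed CpGs. Python 3.11.15, NumPy 2.4.6, pandas 2.3.3, Matplotlib 3.10.9 and, in R, version 1.17.8 of data.table handled tables and figures.

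The members, the gene lists and the tests were chosen with earlier results of these data known. Named were the 5 windows with the largest and smallest loss and the lowest control level, both edge windows, the 5 receptor genes with the largest and smallest loss among the 52 with at least 10 cytosines, all receptor genes under 50% in controls, and coding genes other than receptors. The labels do not pair samples across groups. Alternatives were other CpG minima, 20-kb windows, means over cytosines, untransformed fractions, each region's own spread, no minimum difference, a replicate block, other flanks and densities, and each sample left out in turn.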

Additional observations from a re-analysis of the deposited data

How the results depend on the processing

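With fewer regions tested, 239 of 243 windows with at least 20 CpGs, 249 of 250 windows of 20 kb, 12 of 17 receptor genes and 2 of 2 receptor promoters with at least 10 CpGs were called lower. Genome shares at these minima, at that window size or with 1 sample left out were not counted, so these counts have no background beside them. On their own spread 0 promoters were called. With 1 sample left out, 449 to 450 windows, 98 to 107 receptor genes and 27 to 28 promoters were called, and the cluster difference ran from -34.6 to -31.5 points. The difference in retained share from the flanks was 1.07 points with at least 20 CpGs and ran from -0.169 to 0.716 points with 1 sample left out. That from windows of like density was 2.58 points with at least 20 CpGs, 2.38 points over cytosines and 0.832 points at like control level (chosen after seeing the data). The difference in loss from the flanks was -0.486 points over cytosines, and that between receptor and other windows 0.170 points with at least 20 CpGs; the causes were not tested. With 1 sample left out Olfr1098 ran from -0.949 to 1.41 points (-0.127 without knockout replicate 2) and Olfr1057 from -7.80 to 6.06 points (5.06 without control replicate 2). Samples with the same number share only a number. With a replicate block 450 windows, 104 receptor genes and 28 promoters were called, the gene span of Olfr1240 among the genes. Deviations of same-numbered samples correlated at 0.146 across cluster windows. Receptor genes rest on few CpGs of unknown read depth.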
